A study of Mus musculus with 6 samples.

Results

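The genes described here encode the machinery that licenses origins, opens DNA, copies it and supplies its building blocks. They are 49 mouse genes chosen by symbol: origin recognition and licensing, the replicative helicase, the polymerases, the sliding clamp, nucleotide supply and the E2F1-cyclin E switch. All 49 were found in the table of 27179 genes by Entrez gene ID, and all 49 passed the filter on low counts that left 12916 genes to test. The leukemia carries A/E9a, an alternatively spliced AML1-ETO fusion protein, and mutant NRASG12D, in both groups alike. The mice are labelled C57BL/6 and received vehicle or panobinostat, an inhibitor of histone deacetylases, for 3 days. Live cells carrying GFP were sorted from spleens, and each group has 3 libraries. The sources used here do not give the age of the mice. The leukemia is labelled as 1 line. Nothing in the labels ties libraries to separate mice, so the spread that p-values measure is that of these libraries and could be technical. Each library carries the leading number of its count column, and values below follow the order vehicle 2, 3 and 4 and panobinostat 1, 5 and 6. Further numbers in the column names have no stated meaning, and the last of them differs in panobinostat library 1 alone. Whether it marks a batch was not tested.

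Eukaryotic cells copy their DNA once per cycle. In G1 the origin recognition complex, CDC6 and CDT1 load rings of MCM2-7 onto origins, and geminin later blocks CDT1 so that no origin is loaded again. In S phase CDC45 and the GINS complex join the ring to make the active helicase, and the polymerases, the clamp PCNA, the clamp loader RFC and the single-strand binder RPA follow at the fork. Transcription of many of these genes is driven by E2F factors as cells leave G1, and dividing blood progenitors and leukemia cells express them at high levels.

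With panobinostat the RNA of 18 of the 49 genes fell and that of 1, Rfc2, rose in edgeR's quasi-likelihood test at an adjusted p under 0.05. Over all 12916 tested genes 9.72% were called lower and 11.3% higher. The falls were shallow: none reached 2-fold, the steepest was that of Dut at 1.94-fold, and the median log2 fold change of the 49 genes was -0.47 against 0.01 over all tested genes. In 47 of the 49 the log2 fold change was below 0, against 48.9% of all tested genes. A further 18 genes missed the threshold with a log2 fold change below 0 and an unadjusted edgeR p under 0.05, which makes 36 lower genes by that measure against 17.7% of all tested genes. All 3 panobinostat libraries lay below all 3 vehicle libraries in 37 genes, against 22.7% of tested genes, and above them in 1, against 21.9%. The plot of log2 fold changes by role shows the 49 genes side by side.

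**Figure D1:**
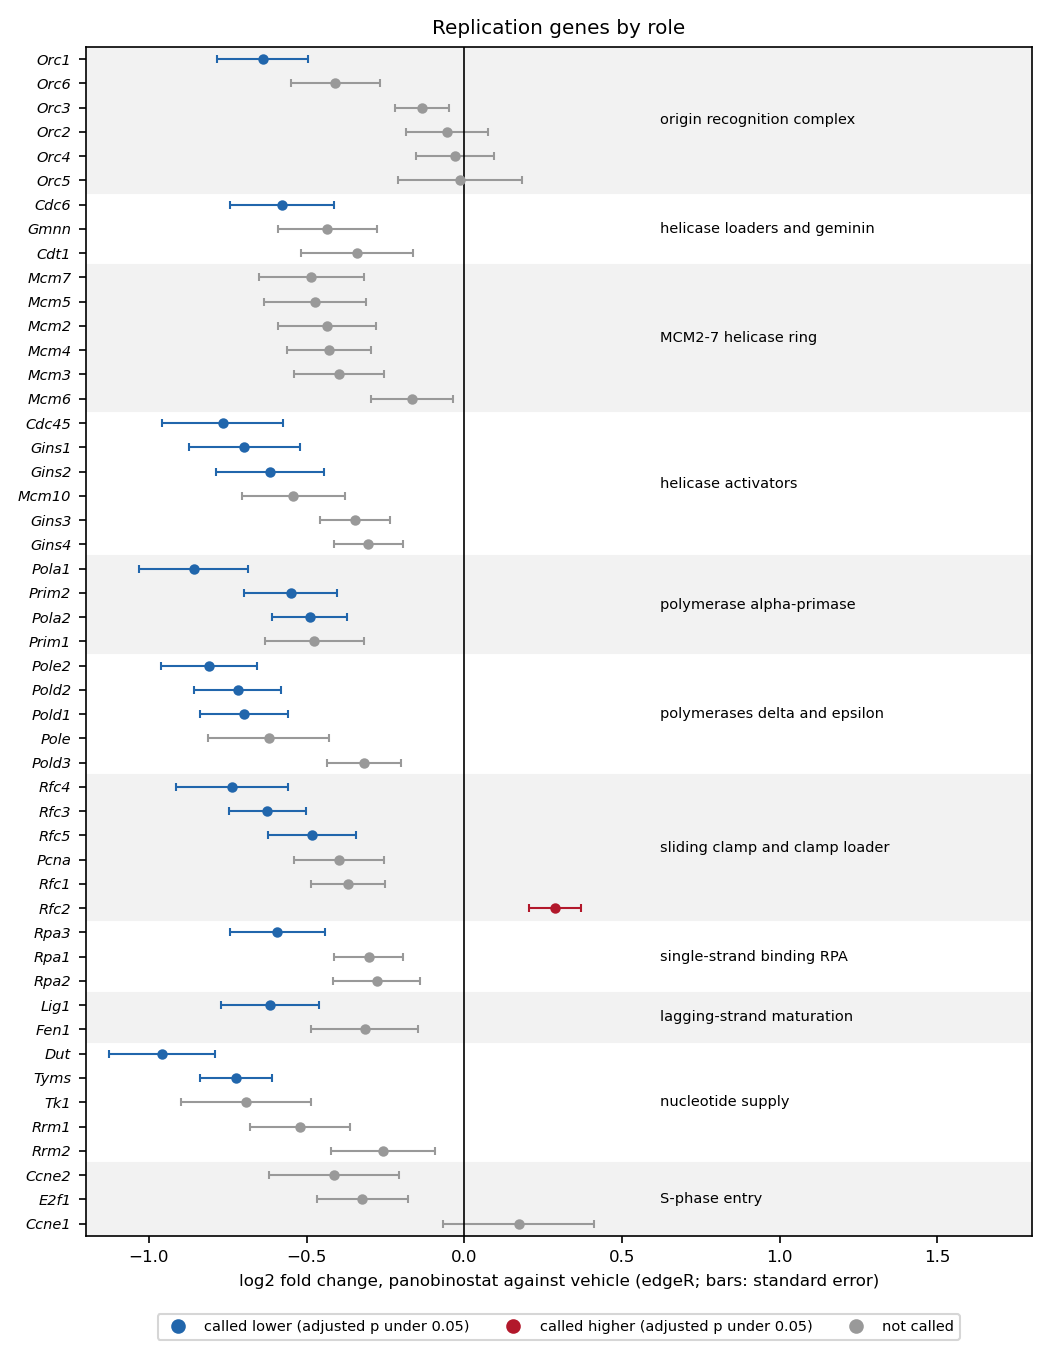
Log2 fold change of each of the 49 genes with panobinostat (x axis, edgeR, bars are standard errors), with genes on the y axis grouped by role and coloured by the call. Of the 49 points 47 lie left of 0, Dut farthest at -0.96, and Rfc2 is the single gene called higher, at 0.29.

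The calls depended on single libraries more than the direction did. Without vehicle library 4, 0 of the 49 genes were called in edgeR, and 1.02% of all tested genes were called lower. In that fit 26 of the 49 were lower at an unadjusted edgeR p under 0.05. The share of all tested genes by that measure was not computed for that fit. Without vehicle library 2 Tyms alone was called (1.37% of all tested genes), without panobinostat library 5 there were 8 (4.9%) and without vehicle library 3 there were 10 (3.89%). Leaving out panobinostat library 6 left 16 (7.11%), and leaving out panobinostat library 1 gave 27 (14.3%). Of the 18 genes, Orc1 and Lig1 also lost the call without panobinostat library 5, as did Cdc45, Gins2, Pola2 and Prim2, which lost it without vehicle library 3 too. Cdc6, Gins1, Rfc5 and Rpa3 lost it without vehicle library 3 or panobinostat library 5 or 6. DESeq2 called 32 lower (13.1% of all tested genes) and limma-voom 17 (9.82%), and 17 genes were called lower by all 3 tools. Within edgeR, RLE factors gave 18 (9.59% of all tested genes), upper-quartile factors 19 (10.2%), library size alone 36 (16.0%), every gene with at least 1 count 21 (6.34%) and a minimum of 10 counts in every library 17 (9.76%). The median log2 fold change of the 49 genes lay between -0.55 and -0.33 in the fits with 1 library left out, and 44 genes were below 0 in all 14 fits. These fits share most of their libraries, and the share of all tested genes below 0 in all 14 was not computed.

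Single libraries stood high or low across most of the 49 genes at once, as the map of libraries shows. Their CPM, counts scaled to a common library total with TMM factors, summed to 7608, 6094 and 6893 with vehicle and to 5490, 4296 and 5591 with panobinostat. Vehicle library 2 held the highest value of the 6 libraries in 39 genes and panobinostat library 5 the lowest in 44. The median gene stood at 0.606 of its vehicle mean in panobinostat library 5, and at 0.770 and 0.795 in panobinostat libraries 1 and 6. The median over all tested genes was between -0.01 and 0.00 (log2) in every library on the same scale. In RNA from sorted bulk cells, fewer cycling cells and less RNA per cell cannot be told apart.

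**Figure D2:**
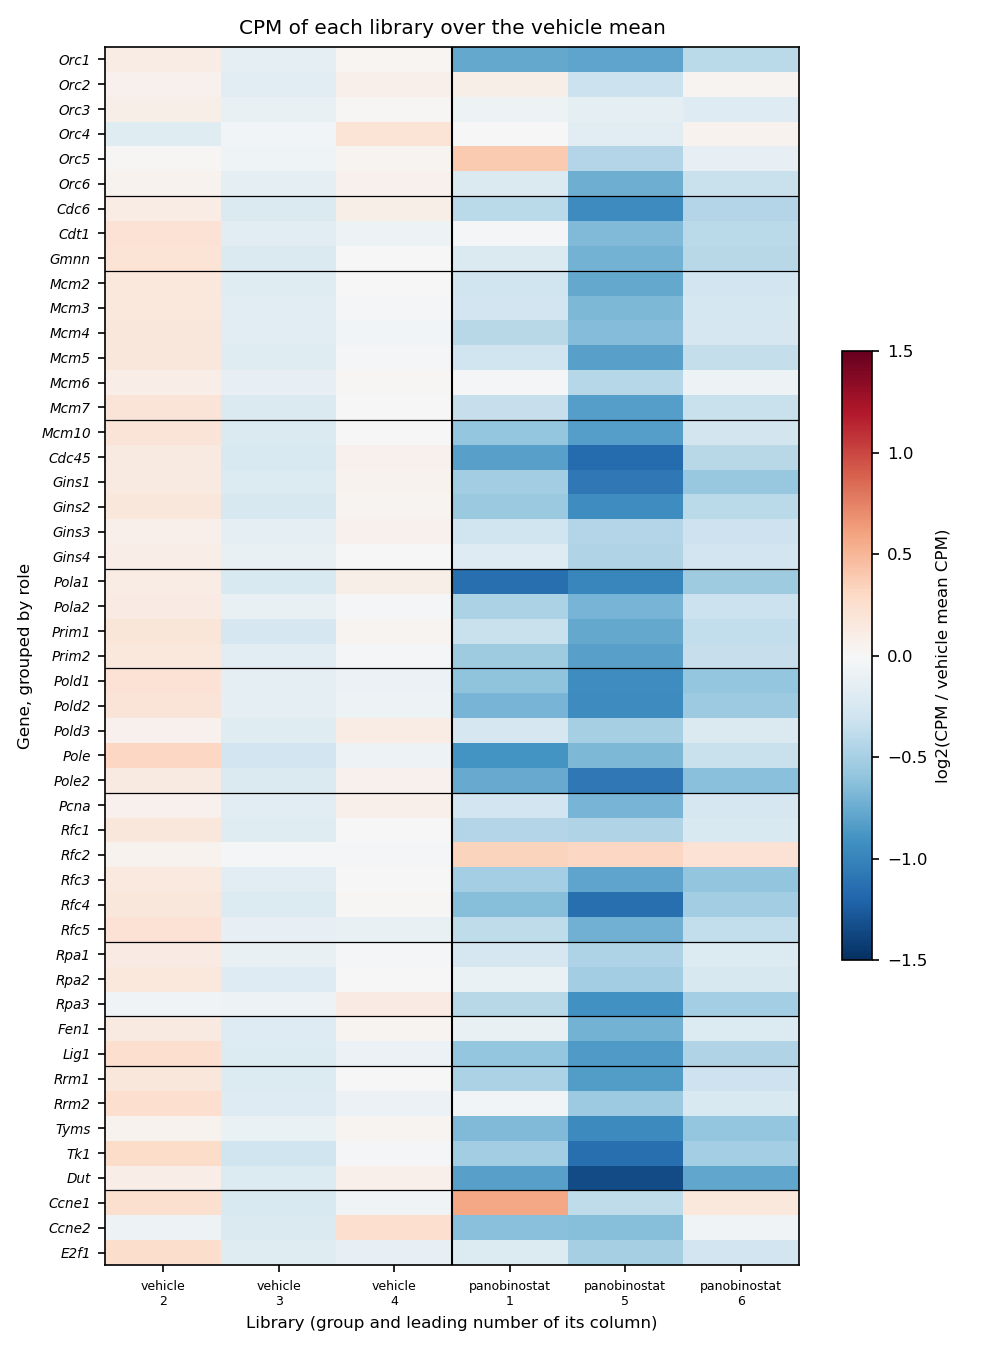
Each row is a gene, each column a library, and the colour is the log2 ratio of its CPM to the mean CPM of the 3 vehicle libraries. The column of panobinostat library 5 is darkest, with the lowest value of the 6 libraries in 44 of 49 genes.

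Libraries held 25794869 to 32571961 counts, and a single count was worth 0.0315 to 0.0403 CPM, so the 49 genes, each with at least 1181 counts summed over the 3 panobinostat libraries, were far above the counting floor. As a check of the sort, the leukemia progenitor genes Kit, Gata2, Myb and Cd34 summed to 918.6 to 1018 CPM with vehicle and 1265 to 1680 CPM with panobinostat, of which Gata2 and Myb were called higher. Markers of other spleen cells were low: 5 B cell genes summed to at most 6.91 CPM, 5 T cell genes to 1.34 CPM and 5 neutrophil genes to 8.51 CPM in any library, with 0 of the 8 tested ones called by edgeR (0 also at an unadjusted p under 0.05) and none at 0 in all libraries. The 6 red pulp macrophage genes summed to 4.47 to 8.69 CPM with vehicle and 6.87 to 31.2 CPM with panobinostat, highest in library 1. All 6 had a log2 fold change above 0, 1 (Vcam1) was called higher, and 3 (Vcam1, C1qc and C1qb) were higher at an unadjusted edgeR p under 0.05. Late erythroid genes moved with the drug: all 4 found of 5 listed were called higher, from sums of 4260 to 5444 CPM to 20900 to 47400 CPM, highest in panobinostat library 1. The part of red cell RNA in the falls of the replication genes was not tested.

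The 300 bases around annotated starts of transcription (250 before and 50 after) were read for E2F words. E2F factors are the known shared regulators of these genes. Of the 49 genes 40 had an entry in the RefSeq table of build GRCm38.p6, all but Gmnn, Mcm4, Gins1, Gins2, Gins4, Prim2, Pole, Rfc2 and Ccne2. The words searched on both strands were TTTCCCGC, TTTGGCGC, TTTCGCGC and TTTGCCGC, and matches may overlap. At least 1 word stood in 15 of 40 genes (37.5%), against 4.85% of the 9684 tested genes with an entry. Some genes have several promoters, and counted by promoter a word stood in 15 of 48 (31.2%), against 2.83% of all 22271 promoters. Of 57 other replication genes, described after the 49, 48 had an entry and 15 of these (31.2%) had a word. Among the 40, the word stood in 7 of 15 genes called lower and in 8 of 25 others, and the median log2 fold change was -0.48 with a word and -0.43 without. CCAAT boxes, searched as CCAAT on both strands, stood in 23 of the 40 (57.5%), against 43.7% of tested genes. They stood in 6 of the 15 genes called lower (40.0%) and in 17 of the 25 others (68.0%). TTTGAA, the core of the CHR element of late cell cycle genes, stood in 5 of 40 (12.5% against 14.5%), and TATAAA in 3 of 40 (7.5% against 8.71%). These are letter matches, not measured binding sites, and words outside the bases read were not searched for. In some genes, among them Dut, E2f1, Rfc1, Orc1 and Cdc6, the bases read lie wholly inside the gene. Bases upstream of these genes were not searched, and Dut, E2f1 and Rfc1 count here as genes without an E2F word.

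Shown here are promoters of called genes with a word (Pola1, Pole2, Rfc3) and of helicase genes with overlapping words that were not called (Mcm5, Mcm6). Also shown is that of Dut, the gene with the steepest fall, which has no word in the bases read. Each runs 5′ to 3′ on the gene's strand, and capitals mark E2F words on either strand.
Pola1 (chrX:93632106-93632405, minus strand): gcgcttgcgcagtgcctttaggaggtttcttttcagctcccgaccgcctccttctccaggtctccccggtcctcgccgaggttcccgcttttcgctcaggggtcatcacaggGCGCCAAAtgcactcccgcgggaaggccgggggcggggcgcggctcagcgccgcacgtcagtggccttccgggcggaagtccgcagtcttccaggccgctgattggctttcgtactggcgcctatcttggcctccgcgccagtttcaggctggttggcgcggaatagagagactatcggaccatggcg
Pole2 (chr12:69228141-69228440, minus strand): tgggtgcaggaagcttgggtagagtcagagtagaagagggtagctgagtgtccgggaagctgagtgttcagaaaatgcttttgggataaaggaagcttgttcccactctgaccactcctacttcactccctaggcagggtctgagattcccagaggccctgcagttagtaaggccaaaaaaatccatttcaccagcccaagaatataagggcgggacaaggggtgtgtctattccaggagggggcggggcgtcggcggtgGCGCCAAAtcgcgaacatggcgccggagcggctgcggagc
Rfc3 (chr5:151651159-151651458, minus strand): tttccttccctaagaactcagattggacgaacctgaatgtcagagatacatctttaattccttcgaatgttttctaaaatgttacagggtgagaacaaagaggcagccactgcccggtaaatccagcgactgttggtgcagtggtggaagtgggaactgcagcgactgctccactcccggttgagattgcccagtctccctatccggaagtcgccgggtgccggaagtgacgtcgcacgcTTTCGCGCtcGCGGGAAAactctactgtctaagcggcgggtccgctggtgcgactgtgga
Mcm5 (chr8:75109259-75109558, plus strand): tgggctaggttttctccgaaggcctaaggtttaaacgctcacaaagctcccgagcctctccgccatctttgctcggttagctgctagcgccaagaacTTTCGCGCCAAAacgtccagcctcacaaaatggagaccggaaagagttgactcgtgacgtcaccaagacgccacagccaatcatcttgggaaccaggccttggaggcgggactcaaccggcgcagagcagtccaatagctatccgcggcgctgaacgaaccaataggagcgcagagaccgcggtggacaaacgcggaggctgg
Mcm6 (chr1:128359656-128359955, minus strand): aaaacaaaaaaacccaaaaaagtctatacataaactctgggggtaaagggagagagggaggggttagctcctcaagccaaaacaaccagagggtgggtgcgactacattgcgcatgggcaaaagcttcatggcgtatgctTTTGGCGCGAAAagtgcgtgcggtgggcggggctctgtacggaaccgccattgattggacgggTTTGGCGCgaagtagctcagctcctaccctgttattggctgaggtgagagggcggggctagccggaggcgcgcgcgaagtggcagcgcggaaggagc
Dut (chr2:125247265-125247564, plus strand): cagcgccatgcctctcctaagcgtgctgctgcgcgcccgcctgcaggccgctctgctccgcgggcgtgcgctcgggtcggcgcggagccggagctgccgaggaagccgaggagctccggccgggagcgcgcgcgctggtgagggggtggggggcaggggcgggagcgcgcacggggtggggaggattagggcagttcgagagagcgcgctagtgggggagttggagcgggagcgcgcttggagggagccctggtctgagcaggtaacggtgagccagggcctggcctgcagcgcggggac
In Mcm5 the first of 2 overlapping words begins 153 bases before the start, and in Mcm6 the words begin 110, 106 and 47 bases before it. In Rfc3 the words begin 10 bases before the start and at the start base itself. The Pola1 word begins 138 bases before the start and the Pole2 word 10 bases after it. For Dut the bases read begin at 125247265, inside the gene, whose first base is 125247248. Bases upstream of the Dut gene were therefore not read.

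The origin recognition complex marks the sites where replication can begin. Of its 6 subunits 1, Orc1, was called lower by edgeR, against 9.72% of all tested genes. Orc1, the subunit that is made and destroyed with the cell cycle, was at 28.7, 24.0 and 27.1 CPM with vehicle and 15.6, 15.4 and 20.2 CPM with panobinostat. The groups did not overlap, with a log2 fold change of -0.64 ± 0.14 and an edgeR adjusted p of 0.0236. Orc6, the small subunit, was at 82.7, 72.6 and 83.3 CPM and 68.4, 48.0 and 63.2 CPM, also without overlap, and did not pass (log2 fold change -0.41 ± 0.14, edgeR adjusted p = 0.0808). The core subunits Orc2, Orc3, Orc4 and Orc5 had log2 fold changes of -0.05, -0.13, -0.03 and -0.01, each with overlapping groups and edgeR adjusted p values from 0.302 to 0.969. Orc5 was widely spread with panobinostat, at 67.6, 38.0 and 47.5 CPM, against 52.3, 49.3 and 53.0 CPM with vehicle. The signs of Orc2, Orc4 and Orc5 turned positive when panobinostat library 5 was left out. Orc2 shares 29.8% of its exon bases with Nif3l1 on the other strand (vehicle 33.8 ± 2.73 CPM, SD, n = 3), and reads of the overlap cannot be assigned without a stated strand setting.

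CDC6 and CDT1 load the helicase and geminin, the product of Gmnn, restrains CDT1. Cdc6 was at 126, 101 and 125 CPM with vehicle and 88.4, 60.8 and 86.3 CPM with panobinostat, lowest in library 5. It fell 1.49-fold (edgeR adjusted p = 0.0459). Gmnn went from 80.9, 60.6 and 70.0 CPM to 60.5, 43.1 and 52.9 CPM, where vehicle library 3 and panobinostat library 1 nearly touch, and Cdt1 from 134, 102 and 109.6 CPM to 113, 72.5 and 87.0 CPM, where the groups overlap. Neither passed (log2 fold changes -0.43 ± 0.16 and -0.34 ± 0.18, edgeR adjusted p = 0.0874 and 0.21). Cdt1 was called lower without panobinostat library 1 (log2 fold change -0.53, edgeR adjusted p = 0.0272) and had a log2 fold change of -0.20 without panobinostat library 5. The log2 ratio of Cdt1 to Gmnn counts within a library, which needs no scaling between libraries, was 0.71 ± 0.05 with vehicle and 0.79 ± 0.10 with panobinostat (SD, n = 3 each). That difference of 0.08 was within the spread (exact permutation test, 2-sided, p = 0.5, adjusted 0.6 over 4 ratios, and 3 against 3 libraries cannot go below 0.1).

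The 6 genes of the MCM2-7 ring were among the most abundant replication RNAs. Per kilobase of exon (RPKM, on GENCODE exon lengths), they stood between 48.6 ± 5.68 for Mcm2 and 101 ± 7.82 for Mcm6 with vehicle, and Pcna alone was higher, at 183 ± 16.0, among the 49. None of the 6 was called by edgeR, against 9.72% of all tested genes called lower, and 5 were lower at an unadjusted edgeR p under 0.05, against 17.7%. DESeq2 called 5 lower, against 13.1%, and limma-voom 0, against 9.82%. Mcm2, Mcm3, Mcm4, Mcm5 and Mcm7 had log2 fold changes from -0.48 to -0.40, adjusted p values in edgeR from 0.0602 to 0.0867 and groups that did not overlap. Mcm7, which had the lowest of these, was at 435, 326 and 376 CPM with vehicle and 298, 214 and 301 CPM with panobinostat. Mcm6 was at 506, 434 and 478 CPM and 465, 351 and 448 CPM, with overlapping groups and a log2 fold change of -0.17 ± 0.13 (edgeR adjusted p = 0.392). With 1 library left out the log2 fold change of Mcm6 lay between -0.24, without panobinostat library 1, and -0.0499, without panobinostat library 5. The difference between Mcm6 and its partners was not tested.

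CDC45 and the 4 GINS proteins turn the loaded ring into the moving helicase, and MCM10 assists. All 6 of these genes had lower values in every panobinostat library than in any vehicle library, against 22.7% of all tested genes. Cdc45 went from 66.9, 52.1 and 63.5 CPM to 34.5, 27.3 and 45.4 CPM, a 1.70-fold fall (edgeR adjusted p = 0.0321). Gins1 went from 29.2, 22.9 and 27.4 CPM to 18.4, 12.6 and 17.9 CPM, a 1.62-fold fall (edgeR adjusted p = 0.0321). In both the lowest value was that of panobinostat library 5. Gins2 fell as well (log2 fold change -0.62 ± 0.17, edgeR adjusted p = 0.0426), while 67.3% of its exon bases lie under Gse1 on the other strand, which rose from 125 ± 7.75 to 192 ± 8.26 CPM (SD, n = 3 each, edgeR adjusted p = 0.00681). Mcm10 was at 106, 79.4 and 91.9 CPM and 61.7, 52.3 and 76.2 CPM, and its edgeR adjusted p of 0.0541 missed the threshold. Gins3 and Gins4 had log2 fold changes of -0.35 ± 0.11 and -0.30 ± 0.11, with edgeR adjusted p values of 0.0646 and 0.0885. At 28.5 ± 2.44 to 22.4 ± 1.26 CPM for Gins3 and 38.5 ± 2.77 to 31.2 ± 2.77 CPM for Gins4 (SD, n = 3), these were the shallowest changes of the 6.

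DNA polymerase alpha and primase start each new strand with a short RNA-DNA primer. Pola1, the catalytic subunit, was at 216, 171 and 213 CPM with vehicle and 91.4, 101 and 138 CPM with panobinostat. It fell 1.81-fold (log2 fold change -0.86 ± 0.17, edgeR adjusted p = 0.017), the second largest fall of the 49, and its lowest value was in panobinostat library 1, not 5. Prim2, the large primase subunit, went from 61.0, 48.4 and 53.9 CPM to 37.7, 30.9 and 42.9 CPM and fell 1.46-fold (edgeR adjusted p = 0.038). Pola2, the regulatory subunit, fell 1.41-fold (edgeR adjusted p = 0.0295). Prim1, the catalytic primase subunit, was at 93.9, 69.3 and 85.2 CPM and 65.6, 48.7 and 64.3 CPM, without overlap between the groups, and did not pass (log2 fold change -0.48 ± 0.16, edgeR adjusted p = 0.0691).

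Polymerase epsilon mainly copies the leading strand and polymerase delta the lagging strand, and 3 of their 5 subunits among the 49 fell, against 9.72% of all tested genes. Pole2, the second subunit of polymerase epsilon, went from 41.7, 32.7 and 39.6 CPM to 22.5, 18.0 and 24.6 CPM, a 1.75-fold fall (edgeR adjusted p = 0.0142). Pold2, the matching subunit of polymerase delta, went from 75.4, 59.7 and 62.4 CPM to 40.5, 34.4 and 45.2 CPM, a 1.65-fold fall (edgeR adjusted p = 0.0148). Both showed groups far apart, with the highest panobinostat value well under the lowest vehicle value. Pold1, the catalytic subunit of polymerase delta, fell 1.62-fold (edgeR adjusted p = 0.0166). Pole, the catalytic subunit of polymerase epsilon, was at 171, 113 and 131 CPM and 74.1, 86.3 and 109 CPM and missed the threshold (log2 fold change -0.62 ± 0.19, edgeR adjusted p = 0.0585). The spread of Pole was wide in both groups, and panobinostat library 1 was its lowest. Pold3, the subunit that binds PCNA, was at 99.6, 84.2 and 103 CPM and 80.0, 67.4 and 82.3 CPM (log2 fold change -0.32 ± 0.12, edgeR adjusted p = 0.0939). The log2 ratio of Pole to Pold1 counts within a library was -0.26 ± 0.12 with vehicle and -0.18 ± 0.31 with panobinostat (SD, n = 3 each; exact permutation p = 0.6, adjusted 0.6).

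Of the small subunits outside the 49 that complete these polymerases, Pole3 and Pole4, histone-fold proteins of polymerase epsilon, fell 1.39-fold and 1.35-fold (edgeR adjusted p = 0.0484 and 0.0351). Pold4, the smallest subunit of polymerase delta, went the other way, from 4.39, 5.89 and 4.35 CPM to 6.81, 9.64 and 8.10 CPM, with no overlap and a log2 fold change of 0.75 ± 0.21 (edgeR adjusted p = 0.0434). Pold4 was also by far the lowest of these polymerase genes in CPM, a scale that does not correct for its length. All 3 calls were kept without panobinostat library 1 and were lost without any 1 of the other 5 libraries.

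PCNA is the ring that tethers polymerases to DNA, and RFC, a complex of 5 subunits, loads it. Within RFC the subunits parted. Rfc4 was at 54.0, 41.7 and 48.6 CPM with vehicle and 30.9, 21.98 and 33.6 CPM with panobinostat, a 1.67-fold fall (edgeR adjusted p = 0.0288). Rfc3 was at 48.5, 39.1 and 43.5 CPM and 30.7, 25.3 and 29.0 CPM, a 1.54-fold fall (edgeR adjusted p = 0.0157). Rfc5 also fell, 1.40-fold (edgeR adjusted p = 0.0484). Rfc2 rose from 179, 170.5 and 171 CPM to 219, 214 and 202 CPM, 1.22-fold, with no overlap and a small spread in each group (log2 fold change 0.29 ± 0.08, edgeR adjusted p = 0.0453). Rfc2 was higher in all 14 fits but called in 6 of them, counting the one reported, and with scaling by library size alone its log2 fold change was 0.18 (edgeR adjusted p = 0.141). Its call was lost without vehicle library 2, 3 or 4 or panobinostat library 5 or 6 (edgeR adjusted p from 0.066 to 0.18), where 3.28%, 5.64%, 2.29%, 7.58% and 8.82% of all tested genes were called higher, in that order. Upper-quartile factors (10.8% of all tested genes called higher), library size alone (8.79%) and every gene with at least 1 count (7.3%) also missed it. DESeq2 (14.5%), limma-voom (10.6%), RLE factors (11.4%), a minimum of 10 counts in every library (11.4%) and the fit without panobinostat library 1 (16.8%) called it.

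The exons of Rfc2 overlap those of Lat2, an adaptor gene of myeloid and mast cells on the other strand, over 15.1% of their bases. Lat2 was at 6.11, 14.9 and 10.04 CPM with vehicle and 6.10, 66.4 and 29.3 CPM with panobinostat. The part of Lat2 reads in the values of Rfc2 was not tested. The large subunit Rfc1, at 162, 127 and 144 CPM and 106, 105 and 123 CPM, did not pass (log2 fold change -0.37 ± 0.12, edgeR adjusted p = 0.0626). Pcna, the most abundant of the 49 per kilobase, was at 457, 394 and 464 CPM and 359.7, 269.6 and 369 CPM and did not pass (log2 fold change -0.40 ± 0.14, edgeR adjusted p = 0.0866). In both genes the groups did not overlap, and panobinostat library 5 held the lowest value.

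**Figure D3:**
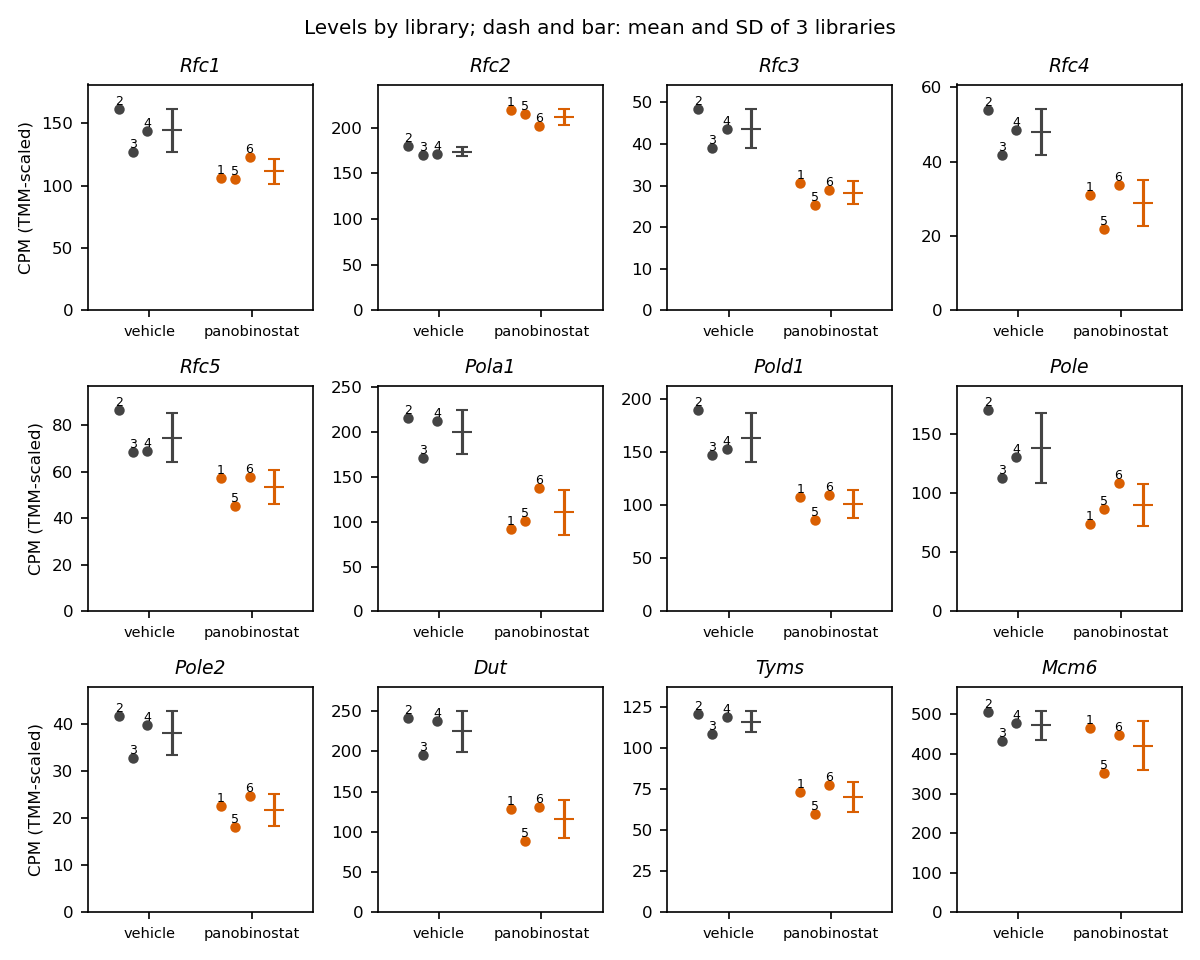
CPM (y axis, from 0) of 12 genes in each library, numbered by library, with the mean and SD of each group of 3 beside the points. Rfc2 sits higher with panobinostat while Rfc3, Rfc4 and Rfc5 sit lower, and the groups of Mcm6 overlap.

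RPA coats the single strands that the helicase exposes. Rpa3, its smallest subunit, was at 24.4, 24.1 and 27.6 CPM with vehicle and 19.0, 13.6 and 17.9 CPM with panobinostat and fell 1.51-fold (edgeR adjusted p = 0.0333). The other two did not pass. Rpa1 was at 227, 192 and 205 CPM and 175, 150.5 and 180.3 CPM (log2 fold change -0.30 ± 0.11, edgeR adjusted p = 0.087), and Rpa2 was at 93.2, 72.9 and 83.8 CPM and 77.5, 58.1 and 70.5 CPM, with overlapping groups (log2 fold change -0.28 ± 0.14, edgeR adjusted p = 0.19). On the lagging strand FEN1 trims the flaps of Okazaki fragments and DNA ligase 1, from Lig1, seals them. Lig1 went from 291, 211 and 230.3 CPM to 163, 135 and 179 CPM, a 1.53-fold fall without overlap (edgeR adjusted p = 0.0323). Fen1 was at 161, 128 and 152 CPM and 136, 89.7 and 128 CPM, with overlapping groups and an edgeR adjusted p of 0.221. GENCODE places an antisense transcript, Gm10143, over 78.8% of the exon bases of Fen1.

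Nucleotide supply held the steepest fall of the 49. Dut encodes the dUTPase that keeps uracil out of DNA and makes the precursor of thymidylate. It was at 242, 196 and 238 CPM with vehicle and 128, 88.6 and 131 CPM with panobinostat, so that the highest treated library was well under the lowest vehicle library. The log2 fold change was -0.96 ± 0.17 (edgeR adjusted p = 0.012). Tyms, the thymidylate synthase that uses this precursor, went from 121, 109 and 119 CPM to 73.5, 60.2 and 77.6 CPM, a 1.65-fold fall with the smallest adjusted p of the 49 (edgeR, 0.00916). Its call was lost only without vehicle library 4 among the 6 fits that leave out a library (edgeR adjusted p = 0.0561). Tk1, the salvage kinase for thymidine, was at 116, 77.7 and 94.0 CPM and 66.7, 43.8 and 67.6 CPM and missed the threshold (log2 fold change -0.69 ± 0.21, edgeR adjusted p = 0.0522).

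Ribonucleotide reductase turns ribonucleotides into deoxyribonucleotides. Its large subunit Rrm1 was at 479.7, 370.5 and 430.1 CPM and 308, 239 and 345 CPM, without overlap, and did not pass (log2 fold change -0.52 ± 0.16, edgeR adjusted p = 0.057). Its S-phase small subunit Rrm2 was at 171, 125 and 135 CPM and 139, 98.0 and 123 CPM, with overlap (log2 fold change -0.26 ± 0.16, edgeR adjusted p = 0.293). The log2 fold change of Rrm2 was -0.12 without vehicle library 2 and -0.13 without panobinostat library 5. The log2 ratio of Rrm2 to Rrm1 counts was -1.58 ± 0.09 with vehicle and -1.31 ± 0.17 with panobinostat (SD, n = 3 each), with the groups just touching between vehicle library 2 and panobinostat library 6 (exact permutation p = 0.2, adjusted 0.6).

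Entry into S phase is driven by cyclin E with CDK2 and by E2F1, and none of these 3 genes was called. E2f1 was at 78.7, 57.4 and 59.9 CPM with vehicle and 56.9, 46.2 and 53.6 CPM with panobinostat, groups that did not overlap (log2 fold change -0.32 ± 0.15, edgeR adjusted p = 0.154). Ccne2 was at 16.9, 15.4 and 21.2 CPM and 11.5, 11.4 and 17.1 CPM (log2 fold change -0.41 ± 0.21, edgeR adjusted p = 0.19). Ccne1 was at 34.8, 25.2 and 28.6 CPM and 44.0, 22.7 and 32.9 CPM (log2 fold change 0.17 ± 0.24, edgeR adjusted p = 0.636). In Ccne1 panobinostat library 1 was the highest of the 6 and panobinostat library 5 the lowest, and the sign of the log2 fold change turned to -0.081 without library 1. The log2 ratio of Ccne1 to Ccne2 counts was 0.73 ± 0.31 with vehicle and 1.29 ± 0.56 with panobinostat (SD, n = 3 each; exact permutation p = 0.3, adjusted 0.6), a difference of 0.24 instead of 0.56 without panobinostat library 1. The unadjusted edgeR p was under 0.05 in 0 of the 3, where 17.7% of all tested genes were lower by that measure. EdgeR, DESeq2 and limma-voom each called 0 of the 3. Over all tested genes they called 9.72%, 13.1% and 9.82% lower and 11.3%, 14.5% and 10.6% higher, in that order. With 3 genes, counts of 0 cannot be told apart from these shares.

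Around the 49 genes, 57 further genes of replication and its control were read in the same fit: the origin-firing kinase, fork protection, chromatin assembly, other nucleotide enzymes and the E2F and RB families. Of these 29 fell and 3 rose, against 9.72% and 11.3% of all tested genes, and their median log2 fold change was -0.49. Dbf4, the activator of the origin-firing kinase CDC7, went from 77.2, 63.9 and 73.7 CPM to 41.2, 41.1 and 51.0 CPM (edgeR adjusted p = 0.0125). Lrwd1, which holds the origin recognition complex on chromatin, fell 1.51-fold (edgeR adjusted p = 0.0142). Shmt1, which supplies one-carbon units for thymidylate, fell 1.84-fold and the histone chaperone gene Nasp 1.59-fold (edgeR adjusted p = 0.0146 and 0.0157). Tfdp1, a dimer partner of E2F proteins, fell 1.49-fold (edgeR adjusted p = 0.0181). Its relative Tfdp2, named after its values were seen, was not called and had a log2 fold change of 0.84 ± 0.27 (edgeR adjusted p = 0.0632). The count of 29 fell to 0 without vehicle library 2 (1.37% of all tested genes called lower) or 4 (1.02%), to 9 without panobinostat library 5 (4.9%) and to 13 without vehicle library 3 (3.89%). DESeq2 called 35 lower (13.1%) and library size alone 38 (16.0%). At an unadjusted edgeR p under 0.05, 33 were lower without vehicle library 2 and 34 without vehicle library 4. The share of all tested genes by that measure was not computed for these fits. The 5 calls named here were lost without vehicle library 2 or 4, and that of Tfdp1 also without vehicle library 3.

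The 3 genes that rose were Samhd1, Rb1 and Pold4. Samhd1 encodes an enzyme that breaks down deoxynucleotides and is known as an interferon-stimulated restriction factor. It went from 159.6, 172 and 157 CPM to 349, 302 and 255 CPM, 1.85-fold higher (log2 fold change 0.89 ± 0.13, edgeR adjusted p = 0.00684), and its call was kept in each of the 6 fits that leave out a library. Rb1, which encodes the retinoblastoma protein that restrains E2F, went from 127, 104 and 89.2 CPM to 168, 185 and 148 CPM, 1.57-fold higher (edgeR adjusted p = 0.0243), a call lost without vehicle library 3 or 4 or panobinostat library 5 (edgeR adjusted p up to 0.096). Its relatives Rbl1 and Rbl2, named after their values were seen, differed in direction: Rbl1 fell 1.45-fold (edgeR adjusted p = 0.0237) and Rbl2 had a log2 fold change of 0.33 ± 0.10 (edgeR adjusted p = 0.0513).

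Of the 49 genes 7 have a protein-coding neighbour that starts on the opposite strand within 1000 bases upstream in GENCODE. Rpa3 has a further such neighbour, Gm45062, which was not tested. None of the 7 tested neighbours was called by edgeR, against 9.72% of all tested genes called lower and 11.3% called higher. Among them 1, Rars2 beside Orc3, had an unadjusted edgeR p under 0.05. Orc1, called lower, shares such a start region with the splicing gene Prpf38a, whose log2 fold change was -0.11 (edgeR adjusted p = 0.53). Gins1, called lower, lies beside Abhd12 (-0.14, 0.409), and Rpa3 beside Umad1 (0.12, 0.536). Mcm4, which did not pass, lies 466 bases from the start of Prkdc, the repair kinase DNA-PKcs, which was at 51.1 ± 3.44 CPM with vehicle and 56.8 ± 7.62 CPM with panobinostat (SD, n = 3 each, edgeR adjusted p = 0.401). The differences between the neighbours were not tested. Exons of 18 of the 49 genes overlap those of another annotated gene, 8 of them over at least 10% of their bases. Besides those already given, these are Orc1 with Gm12743 (10.8%), Rfc4 with Eif4a2 (12.7%), Rfc5 with Wsb2 (10.7%) and Ccne2 with Ints8 (17.4%), all on opposite strands.

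**Figure D4:**
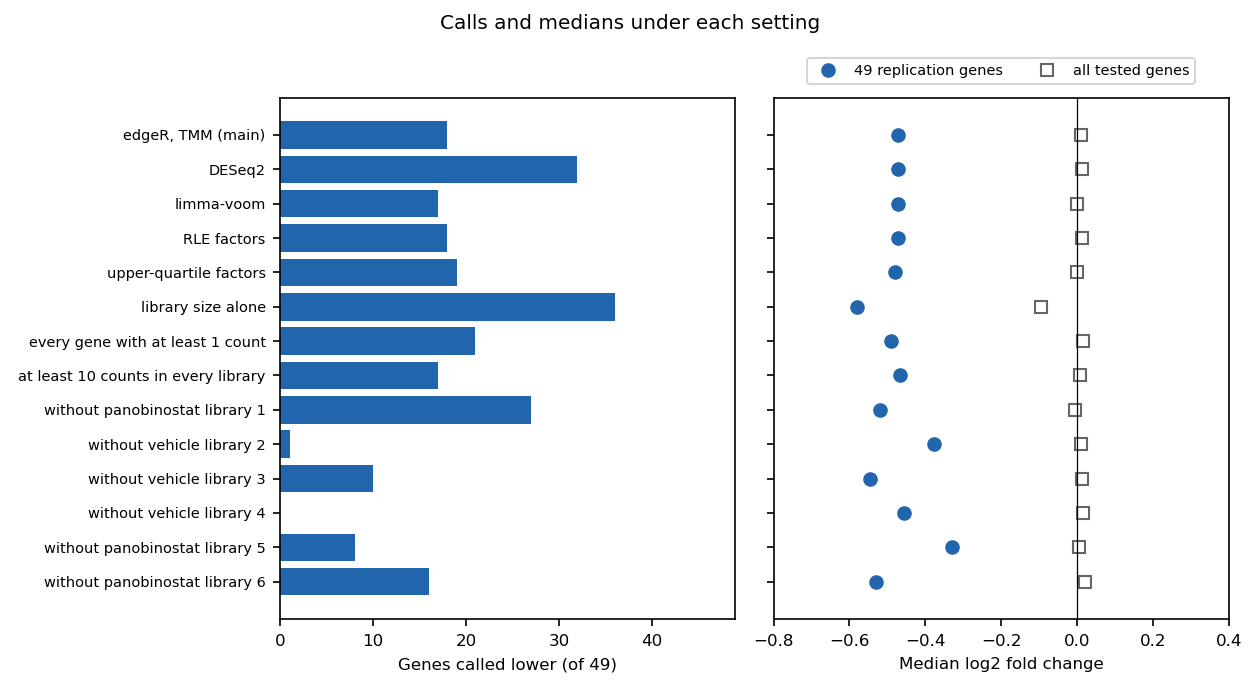
Left, the number of the 49 genes called lower (x axis) in each fit (y axis); right, the median log2 fold change of the 49 genes (circles) and of all tested genes (squares). Calls range from 0 without vehicle library 4 (1.02% of all tested genes called lower) to 36 with library size alone (16.0%). The median of the 49 stays between -0.58 and -0.33.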

How the data were processed

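RNA of sorted spleen leukemia cells was sequenced in 6 libraries, 3 per group. The authors deposited whole-number read counts per gene by Entrez ID. Per the submitters' processing notes, the named tools include cutadapt 2.1, HISAT2 2.1.0, limma and Subread 2.0.0 with featureCounts, and the named build is mm10. The sources used here do not give the strand setting, annotation or handling of multiply placed reads. Column names give the group but not the replicate, and 0 columns were unused. Of 27179 IDs, 25275 were named from RefSeq.

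Genes were filtered with edgeR's filterByExpr (12916 left), scaled by TMM and tested with the quasi-likelihood F test of edgeR 4.0.16 in R 4.3.3, with Benjamini-Hochberg adjustment over all tested genes and calls at 0.05. The biological coefficient of variation was 0.195. Standard errors are the absolute log2 fold change over the square root of F. Alternatives were DESeq2 1.42.0, limma-voom (limma 3.58.1), 3 scalings, 2 filters and each library left out. Scripts were tested on simulated data. Ratios used a prior of 1 count and an exact permutation test. Exon lengths and overlaps are from GENCODE, promoters from RefSeq GRCm38.p6.

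The genes and lists were chosen with earlier results of these data known. Within each role, up to 2 called genes with the largest change were given in full, with genes that were not called or went the other way, and Pola2, Pold1, Gins2, Rfc5 and single members of larger groups were added after their values were seen. The CPM that 1 count is worth covers counting error alone.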

Additional observations from a re-analysis of the deposited data

How the results depend on the processing

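The direction held more widely than the calls. The 18 genes called lower (9.72% of all tested genes) became 32 with DESeq2 (13.1%) and 36 with scaling by library size alone (16.0%). With 1 library left out the count ranged from 0 to 27, where 1.02% to 14.3% of all tested genes were called lower. Rfc2, the 1 gene called higher, was not called with upper-quartile factors, library size alone or every gene with at least 1 count (0 genes each). Over all tested genes 10.8%, 8.79% and 7.3% were called higher there, in that order. The count with 1 library left out ranged from 0 to 1, where 2.29% to 16.8% of all tested genes were called higher. At an unadjusted edgeR p under 0.05 Rfc2 was higher in all of these fits but that by library size alone. Library size alone moved the median of all tested genes to -0.10 and that of the 49 genes to -0.58, and their difference was -0.48 in that fit and with TMM.

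Of the 57 other replication genes, 0 to 33 were called lower and 1 to 4 higher with 1 library left out, where 1.02% to 14.3% of all tested genes were called lower and 2.29% to 16.8% higher. DESeq2 called 35 lower and 5 higher (13.1% and 14.5% of all tested genes), and library size alone 38 and 2 (16.0% and 8.79%). The fits with 0 called lower, without vehicle library 2 or 4, had 33 and 34 lower at an unadjusted edgeR p under 0.05. For these fits the share of all tested genes by that measure was not computed. The median of the 49 genes ranged from -0.55 to -0.33 with 1 library left out. The ratio differences ranged from 0.03 to 0.12 for Cdt1 to Gmnn, from 0.24 to 0.73 for Ccne1 to Ccne2, from 0.19 to 0.36 for Rrm2 to Rrm1 and from -0.01 to 0.26 for Pole to Pold1. With 1 library left out, log2 fold changes ranged from -0.13 to 0.0605 for Orc2, above 0 without panobinostat library 5, and from -0.12 to 0.082 for Orc4, above 0 without vehicle library 4 or panobinostat library 5. They ranged from -0.27 to 0.16 for Orc5, above 0 without vehicle library 4 or panobinostat library 5 or 6, and from -0.081, without panobinostat library 1, to 0.38 for Ccne1. Other log2 fold changes moved by over 1.5 times from their value with all 6 libraries, without changing sign. Their ranges with 1 library left out were -0.53 to -0.20 for Cdt1, -0.24 to -0.0499 for Mcm6, -0.37 to -0.17 for Rpa2 and -0.43 to -0.15 for Fen1. For Rrm2 the range was -0.38 to -0.12, for Ccne2 -0.63 to -0.27 and for E2f1 -0.41 to -0.17. None of these genes was called with all 6 libraries. Called genes varied as well, for example Cdc45 (-0.97 to -0.61) and Cdc6 (-0.68 to -0.42). The causes were not tested.

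No paired analysis was possible because the columns carry a group but no replicate number that ties them to the labels. With 3 libraries per group the spread is poorly known, and calls near the threshold turn on single libraries.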
